A study of Mus musculus with 9 samples.

Results

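MiR-28a, miR-151 and miR-708 are miRNAs cut from introns of protein-coding genes, and they were followed across brown (BAT), subcutaneous (SAT) and visceral adipose tissue (VAT) of obese mice. Members were taken by their names, without a threshold on values, as the rows of the miRNA table named miR-28, miR-151 or miR-708 with any letter or arm. The table holds 8 such rows among 1251, namely miR-28a-5p, miR-28a-3p, miR-28b, miR-28c, miR-151-5p, miR-151-3p, miR-708-5p and miR-708-3p. The tissues came from male C57BL/6J mice, 5 to 6 weeks of age before a period of acclimation, that then ate a high fat diet with 45% of its energy from fat for 11 weeks. After a fast of 4 hours, epididymal fat was taken as VAT, inguinal fat as SAT and interscapular fat as BAT. Small RNA was sequenced from 3 libraries per depot, named here by the numbers in their titles (BAT 12, BAT 15 and BAT 20, SAT 14, SAT 19 and SAT 20, VAT 14, VAT 17 and VAT 20). All 9 libraries share the diet, so that the comparisons are between depots and not between diets. The labels do not say that the numbers are mice, so that p values cover only the spread between these libraries.

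A miRNA is made from a hairpin precursor whose 5p and 3p arms are both cut out. One arm of the duplex is usually loaded into Argonaute, and bases 2 to 8 of the loaded arm, the seed, pair with target mRNAs. MiR-28, miR-151 and miR-708 are grouped as 1 family because their precursors descend from the same class of repeat element. An intronic miRNA is often transcribed together with its host gene. Lpp, the host of miR-28a, codes for a protein of focal adhesions, Ptk2, the host of miR-151, for focal adhesion kinase, and Tenm4, the host of miR-708, for a teneurin of the cell surface. MiR-708 and Tenm4 are known to be induced by the ER stress factor CHOP.

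The mature sequences show which members can act on the same targets and which rows could share reads. Of the 8 rows, 5 were matched by name to mature sequences of RefSeq (GRCm38.p6), and no entry was matched for miR-28c, miR-151-5p and miR-151-3p. Capitals mark the seed.
miR-28a-5p: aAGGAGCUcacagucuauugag
miR-708-5p: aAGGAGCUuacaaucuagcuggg
miR-28b: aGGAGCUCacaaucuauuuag
miR-28a-3p: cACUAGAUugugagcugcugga
miR-708-3p: cAACUAGAcugugagcuucuag
MiR-28a-5p and miR-708-5p have the same seed, and no other of the 1679 mature miRNAs in the reference has it. Over 22 aligned bases they are identical at 16, and the first change after the seed is C9U (miR-28a-5p first, counted from its 5′ end). MiR-28b starts 1 base further in and is identical to miR-28a-5p at 19 of 21 aligned bases. The 3p arms do not share a seed, although they are identical at 17 of 21 bases when miR-708-3p is shifted by 1 base.

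In GENCODE release M21 on GRCm38, the build that the labels name as mm10, Mir28a lies on the plus strand of chr16:24827855-24827940, in intron 8 of Lpp-201. Mir151 lies on the minus strand of chr15:73254815-73254882, in intron 22 of Ptk2-201. Mir708 lies on the plus strand of chr7:96249424-96249532, in intron 1 of Tenm4-202. Each of the 3 precursors is on the strand of its host and overlaps no exon of a host transcript that spans it. An antisense gene on the other strand, 1700085D07Rik, also covers Mir151. Mir28c (chr15:53614205-53614279, minus strand) is within the gene Samd12 on the same strand.

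The values were used as the authors deposited them, on a log2 scale. The authors state a normalization to the total usable reads. Libraries also share values at many of the high ranks, a pattern that quantile normalization leaves. The log2 of 10 gives the lowest value, 3.32, and 839 rows had it in all 9 libraries. A miRNA was tested when 3 or more of the 9 libraries exceeded the lowest value, which held for 343 miRNAs and 7 of the 8 members. The exception was miR-28b, which had the lowest value in every library. MiR-28c had the same value as miR-28a-5p in all 9 libraries, so that both rows carry 1 measurement. Such identical rows formed 9 sets among the tested miRNAs, and the authors shared reads that map to several places in proportion. Reads of Mir28a and Mir28c cannot be told apart here, and what is given for miR-28a-5p stands for both, which leaves 6 arms of 3 precursors. The table holds no read counts, so that the depth of each library is unknown and no counting error can be given.

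The 9 libraries differed in miRNAs of other cell types, which were summed over lists by cell type on the linear scale above the lowest value. The 6 miRNAs of the skeletal muscle list, led by miR-133a-3p, summed to log2 values of 10.10, 17.21 and 18.68 in BAT 12, BAT 15 and BAT 20. They were 9.85 to 10.79 in SAT and 9.85, 12.59 and 17.21 in VAT 14, VAT 17 and VAT 20. BAT 15, BAT 20 and VAT 20 thus stood apart from the other 6 libraries. The cardiac and slow muscle miRNAs miR-499-5p and miR-208b-3p were at the lowest value in every library, and miR-1a-3p was above it in BAT 20 and VAT 20 alone. The brown adipocyte list, which was above the lowest value with all 6 miRNAs in BAT, was 17.44 to 18.89 in BAT, 15.19 to 15.27 in SAT and 15.69 to 16.29 in VAT. This sum did not overlap between BAT and the other depots. MiR-365-3p of the list did, with 11.05 in BAT 20 against 11.34 in SAT 19 and 11.18 in VAT 20. Of the 6 miRNAs of the myeloid list, 4 had a row. All 4 were at the lowest value in BAT, miR-155-5p was there in every library, and miR-223-3p was 9.0 to 9.27 in SAT and 9.85 to 10.38 in VAT.

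**Figure D1:**
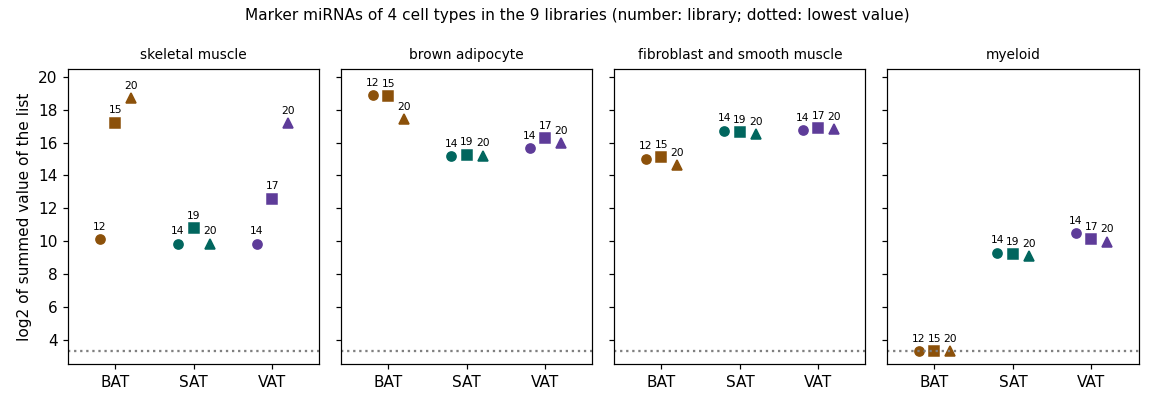
Summed level of marker miRNAs of 4 cell types (vertical axis, log2 of the summed linear values, the lowest value added) in each library (points, numbered by library) of BAT, SAT and VAT. The skeletal muscle list is highest in BAT 20, BAT 15 and VAT 20, at 17.21 to 18.68, and the myeloid list is at the lowest value in the 3 BAT libraries.

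The arms spanned most of the range of the table. The levels below are the deposited log2 values, without scaling to length, of mature miRNAs of 22 or 23 bases where the sequence was matched. In BAT the order of the means was miR-151-3p (15.34 ± 0.34), miR-151-5p (13.08 ± 0.55), miR-28a-5p (8.27 ± 0.17), miR-28a-3p (8.04 ± 0.29), miR-708-5p (4.81 ± 1.44) and miR-708-3p (4.67 ± 1.25; SD, n = 3 libraries each). MiR-28a-5p and miR-28a-3p overlapped there, and so did miR-708-5p and miR-708-3p. In SAT miR-708-5p (9.60 ± 0.40) moved ahead of miR-28a-5p (9.20 ± 0.49), although the libraries of both overlapped, and was followed by miR-28a-3p (8.27 ± 0.25) and miR-708-3p (6.61 ± 0.71; SD, n = 3). In VAT miR-28a-5p (9.27 ± 0.14) and miR-708-5p (9.06 ± 0.17) overlapped, above miR-28a-3p (8.46 ± 0.17) and miR-708-3p (7.16 ± 0.22; SD, n = 3). Both arms of miR-151 led the order in SAT (14.44 ± 0.06 for miR-151-3p and 13.57 ± 0.17 for miR-151-5p) and in VAT (14.01 ± 0.24 and 13.38 ± 0.19; SD, n = 3), without overlap. Among the 343 tested miRNAs of a library, miR-151-3p had ranks of 12 to 17 in BAT, of 20 to 21 in SAT and of 24 to 30 in VAT. MiR-708-5p ranked 207 to 247 in BAT, where 247 is the place of the lowest value in BAT 20, but 92 to 110 in SAT and 108 to 117 in VAT.

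**Figure D2:**
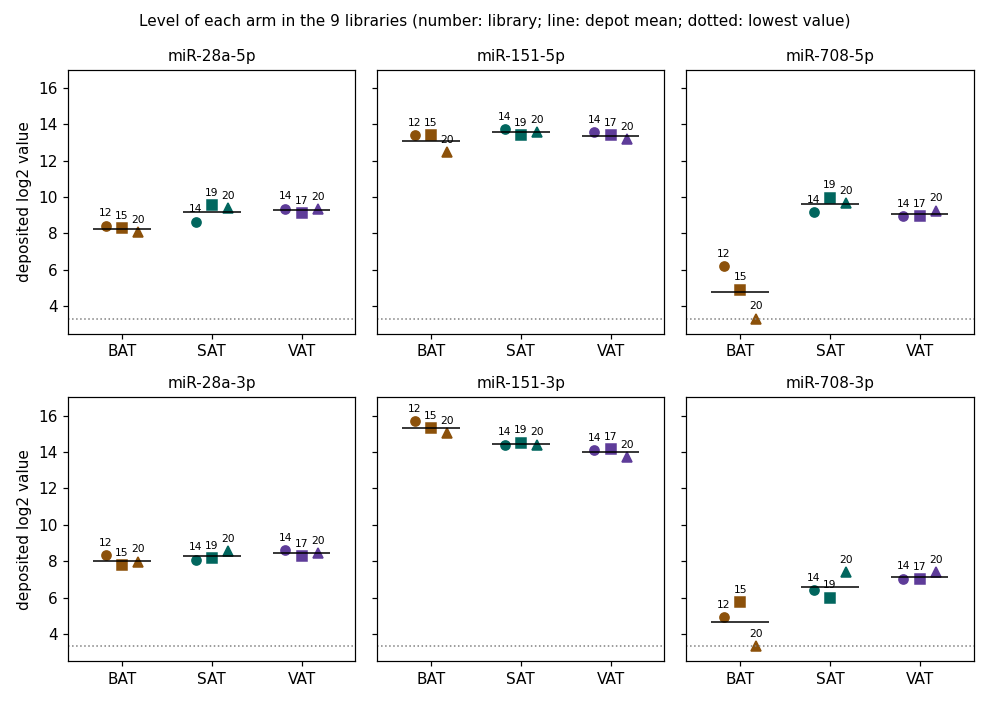
Deposited log2 value (vertical axis) of the 6 arms in each library (points, numbered by library) of BAT, SAT and VAT, with the depot mean as a line and the lowest value, 3.32, dotted. MiR-708-5p is at 3.32 to 6.19 in BAT and at 8.94 or above in the 6 libraries of SAT and VAT, while miR-151-3p is at 15.02 or above in BAT and at 14.52 or below elsewhere.

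In the comparison of VAT with BAT, miR-708-5p, miR-708-3p and miR-28a-5p had higher expression in VAT, and miR-151-3p had lower expression. MiR-28a-3p and miR-151-5p did not pass the test. Thus 3 of the 6 arms were higher and 1 was lower at an adjusted p under 0.05, where 66.2% of the 343 tested miRNAs passed (39.4% higher in VAT, 26.8% lower). A share of 4 in 6 is near that background. The median log2 difference was 0.71 over the 6 arms and 0.40 over the 343 tested miRNAs. Shifting the libraries to a common median left the latter at 0.37, and quantile normalization brought it to 0.13. Each comparison was fitted with limma on the 6 libraries of its depots, two-sided, and the p values of the 343 miRNAs were adjusted after Benjamini and Hochberg.

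In the comparison of SAT with BAT, miR-708-5p was higher in SAT and miR-151-3p lower, and the other 4 arms did not pass. In this comparison 40.5% of the tested miRNAs passed (22.4% higher in SAT, 18.1% lower), and the median log2 difference was 0.71 over the 6 arms and 0.26 over all tested. Both comparisons use the same 3 BAT libraries. Between VAT and SAT none of the 6 arms passed in limma, where 16% of the tested miRNAs did (8.45% higher in VAT, 7.58% lower). At an unadjusted p under 0.05 there was 1 of 6, miR-151-3p, against 123 of the 343 tested miRNAs. Libraries were separated without overlap for 4 of the 6 arms in VAT/BAT and for the same 4 in SAT/BAT, namely miR-28a-5p, miR-151-3p, miR-708-5p and miR-708-3p, and for miR-151-3p alone in VAT/SAT. Over the 343 tested miRNAs this share was 72%, 52.5% and 39.4%.

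**Figure D3:**
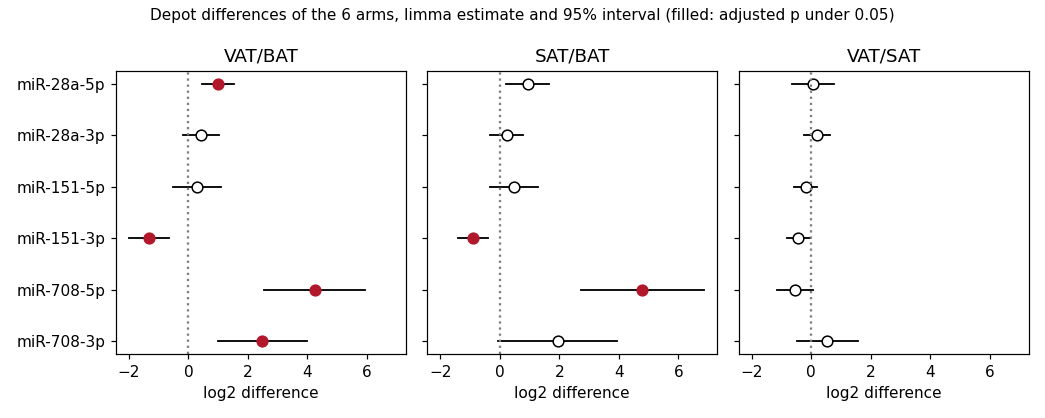
Log2 difference between depots (horizontal axis) of the 6 arms in VAT/BAT, SAT/BAT and VAT/SAT, as limma's estimate (point) with its 95% interval (line). Filled points mark an adjusted p under 0.05, which 4 arms reach in VAT/BAT, 2 in SAT/BAT and 0 in VAT/SAT.

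MiR-708-5p was the member that differed most in these sequencing values. For VAT against BAT, however, the study reports that its qPCR of this miRNA changed in the reverse direction to its sequencing. The qPCR values were not among the data used, and the reason for the discrepancy was not tested. What is given here for this miRNA rests on sequencing alone. Its log2 values were 6.19, 4.92 and 3.32 in BAT 12, BAT 15 and BAT 20, 9.18, 9.97 and 9.65 in SAT 14, SAT 19 and SAT 20, and 8.94, 8.98 and 9.25 in VAT 14, VAT 17 and VAT 20. All BAT libraries lay below all others, and they spread more widely than those of SAT or VAT. The log2 difference was 4.25 in VAT/BAT (95% interval 2.55 to 5.94, adjusted p = 0.00249), a fold of 19. The SAT/BAT value was 4.79 (95% interval 2.72 to 6.86, adjusted p = 0.00886), a fold of 27.7. By size these ranked 16 and 17 among the 343. Between VAT and SAT the log2 difference was -0.54 (95% interval -1.15 to 0.07, adjusted p = 0.178), with overlap between SAT 14 and VAT 20.

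BAT 20 was at the lowest value for both arms of miR-708, so that the size of the change depends on what the lowest value stands for. Without BAT 20 the log2 difference of miR-708-5p became 3.50 for VAT/BAT (adjusted p = 0.00157), whereas for SAT/BAT it became 4.04 (adjusted p = 0.00853). Without BAT 12, the highest BAT library, the values were 4.94 and 5.48. With the lowest value subtracted and 1 added it was 5.56 in VAT/BAT, and with a further 40 added 2.96. Within BAT, miR-708-5p was lower where the muscle list was higher, in the order BAT 12, BAT 15 and BAT 20. MiR-28a-5p and miR-151-3p fell in the same order, which miR-708-3p, highest in BAT 15, did not. Within VAT the order was the other way. VAT 20 had the highest muscle list there (17.21) and also the highest miR-708-5p (9.25). Whether muscle in the samples bears on miR-708-5p was not tested. When BAT 15, BAT 20 and VAT 20 were left out of a single fit of the other 6 libraries, BAT 12 was the only BAT library. The spread in this fit thus came from SAT and VAT alone. VAT exceeded BAT by 2.76 and SAT exceeded it by 3.41. Without the filter on low values miR-708-5p missed the threshold in both comparisons (adjusted p = 0.0585 for VAT/BAT and 0.0710 for SAT/BAT).

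The myeloid list and the fibroblast and smooth muscle list were, like miR-708-5p, higher in both white depots than in BAT. The latter, with 5 of 5 miRNAs above the lowest value in every library, had summed log2 values of 14.60 to 15.10 in BAT, 16.51 to 16.73 in SAT and 16.73 to 16.87 in VAT. In each of the comparisons with BAT, 3 of its miRNAs passed as higher and 0 as lower. All 3 tested miRNAs of the myeloid list passed as higher in VAT/BAT, and 1 did in SAT/BAT. Between the white depots the summed levels of both lists were higher in VAT, whereas the mean of miR-708-5p was lower there without passing. The sums do not stand for each miRNA. In the fibroblast and smooth muscle list miR-145a-5p had 13.9, 14.7 and 14.3 in SAT 14, SAT 19 and SAT 20. It tended lower in VAT, with 13.4, 13.9 and 13.1 in VAT 14, VAT 17 and VAT 20. MiR-214-3p overlapped between these depots. The median log2 difference in VAT/SAT over the 5 miRNAs of that list was 0.22. In VAT/SAT 2 of the 3 myeloid miRNAs and 1 of the 5 fibroblast and smooth muscle miRNAs passed as higher and 0 as lower. The part of other cells in the level of miR-708-5p was not tested. In whole tissue, fewer cells of a type and less of a miRNA per cell cannot be told apart.

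MiR-708-3p, the other arm of the precursor, had 4.92, 5.78 and 3.32 in BAT 12, BAT 15 and BAT 20, 6.43, 6.01 and 7.40 in SAT 14, SAT 19 and SAT 20, and 7.05, 7.0 and 7.41 in VAT 14, VAT 17 and VAT 20. As with miR-708-5p, every BAT library lay below every other. VAT exceeded BAT by 2.48 on the log2 scale (95% interval 0.98 to 3.98, adjusted p = 0.0131), a fold of 5.59. In SAT/BAT the difference was 1.94 (95% interval -0.05 to 3.92, adjusted p = 0.106), and this arm was not past the threshold there, although it was in a fit of all 9 libraries (adjusted p = 0.0283). The VAT/BAT call was lost without VAT 14 (adjusted p = 0.0531), without VAT 20 (adjusted p = 0.0620) and without the filter on low values (adjusted p = 0.170). It was also lost with the 3 libraries of high muscle miRNAs left out (log2 difference 2.11), where BAT 12 is the only BAT library. With the lowest value subtracted and 1 added, the difference was 3.75 (adjusted p = 0.0654), and with a further 40 added it was 1.40 (adjusted p = 0.00509).

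MiR-28a-5p, which has the seed of miR-708-5p, had 8.43, 8.28 and 8.09 in BAT 12, BAT 15 and BAT 20, 8.65, 9.57 and 9.39 in SAT 14, SAT 19 and SAT 20, and 9.37, 9.10 and 9.33 in VAT 14, VAT 17 and VAT 20. The BAT libraries lay below all others, with SAT 14 the nearest to them. It was higher in VAT than in BAT by 0.996 on the log2 scale (standard error 0.22, adjusted p = 0.00797). With the 3 libraries of high muscle miRNAs left out, BAT 12 was the only BAT library, and this call was lost (log2 difference 0.80). In SAT/BAT the log2 difference was 0.93 (95% interval 0.20 to 1.66, adjusted p = 0.0533), and without SAT 14 it was 1.21 (adjusted p = 0.00971). In VAT/SAT it was 0.06 (95% interval -0.64 to 0.76).

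MiR-28a-3p had 8.35, 7.78 and 7.99 in BAT 12, BAT 15 and BAT 20, 8.09, 8.17 and 8.56 in SAT 14, SAT 19 and SAT 20, and 8.63, 8.29 and 8.45 in VAT 14, VAT 17 and VAT 20. The depots overlapped in all 3 comparisons. The log2 differences were 0.42 in VAT/BAT (95% interval -0.18 to 1.02), 0.23 in SAT/BAT (95% interval -0.32 to 0.79) and 0.19 in VAT/SAT (95% interval -0.26 to 0.63). In limma all 3 were above the threshold (adjusted p = 0.174, 0.420 and 0.505), and the intervals leave room for a change of up to 1.02.

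The 2 miRNAs that share a seed differed in their balance between depots. The log2 value of miR-708-5p minus that of miR-28a-5p in the same library was -2.24, -3.36 and -4.77 in BAT 12, BAT 15 and BAT 20. It was 0.53, 0.41 and 0.26 in SAT 14, SAT 19 and SAT 20, and -0.43, -0.12 and -0.07 in VAT 14, VAT 17 and VAT 20. On average miR-708-5p was 11.0-fold below miR-28a-5p in BAT, 1.32-fold above it in SAT and 1.16-fold below it in VAT (log2 means -3.46 ± 1.27, 0.40 ± 0.13 and -0.21 ± 0.19, SD, n = 3). In BAT 20 miR-708-5p was at the lowest value, so that the fold in BAT depends on what that value stands for. The value of miR-28a-5p cannot be told apart from that of miR-28c. These balances are given as a description, without a test, since each miRNA is tested above.

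MiR-151-3p is the most abundant of the 6 arms, and it was the one that was lower in white than in brown fat. Its log2 values were 15.70, 15.30 and 15.02 in BAT 12, BAT 15 and BAT 20, 14.41, 14.52 and 14.41 in SAT 14, SAT 19 and SAT 20, and 14.11, 14.18 and 13.74 in VAT 14, VAT 17 and VAT 20. The 3 depots did not overlap, with BAT highest and VAT lowest. It was 2.51-fold lower in VAT than in BAT (log2 difference -1.33, 95% interval -1.99 to -0.67, adjusted p = 0.00605), and 1.86-fold lower in SAT (log2 difference -0.89, 95% interval -1.40 to -0.39, adjusted p = 0.0204). Between VAT and SAT the log2 difference was -0.43 (95% interval -0.81 to -0.06, adjusted p = 0.109).

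The VAT/BAT call of miR-151-3p held in all 19 alternatives, with adjusted p from 0.00166 to 0.0470. The SAT/BAT call was lost without BAT 15 (adjusted p = 0.0552), without SAT 14 (adjusted p = 0.0664), without SAT 19 (adjusted p = 0.0552), without SAT 20 (adjusted p = 0.0728), with the order of the libraries as a replicate block (adjusted p = 0.0615) and without the filter on low values (adjusted p = 0.120). In that fit, with the 3 libraries of high muscle miRNAs left out, the log2 differences were -1.55 in VAT/BAT and -1.25 in SAT/BAT. The direction was the same in every one of these settings.

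MiR-151-5p had 13.40, 13.40 and 12.45 in BAT 12, BAT 15 and BAT 20, 13.74, 13.40 and 13.56 in SAT 14, SAT 19 and SAT 20, and 13.56, 13.40 and 13.18 in VAT 14, VAT 17 and VAT 20. The same value, 13.40, occurs in 4 libraries, since libraries have the same value at many of the high ranks, and the depots overlapped. The log2 differences were 0.30 in VAT/BAT (95% interval -0.51 to 1.10, adjusted p = 0.449), 0.48 in SAT/BAT (95% interval -0.33 to 1.29, adjusted p = 0.267) and -0.19 in VAT/SAT (95% interval -0.58 to 0.20, adjusted p = 0.450). BAT 20 was the low library, and without it the VAT/BAT difference was -0.020.

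Both arms of a precursor come from 1 hairpin, and their difference was taken within each library. For miR-151 the 3p arm was the higher in all 9 libraries. The log2 value of the 5p arm minus that of the 3p arm was -2.29, -1.90 and -2.57 in BAT 12, BAT 15 and BAT 20, -0.67, -1.12 and -0.84 in SAT 14, SAT 19 and SAT 20, and -0.55, -0.78 and -0.56 in VAT 14, VAT 17 and VAT 20. The excess of miR-151-3p over miR-151-5p was thus 4.77-fold on average in BAT, 1.84-fold in SAT and 1.55-fold in VAT. The BAT libraries did not overlap with those of SAT or VAT (exact permutation test over libraries, two-sided p = 0.1 against either white depot, the smallest that 3 libraries against 3 allow, and 0.129 after adjustment over the 9 such tests).

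A limma fit of this difference over the 84 precursors with both arms tested was added after the values were seen. The arm difference of miR-151 rose by 1.62 from BAT to VAT (standard error 0.32, adjusted p = 0.00691) and was 1.38 higher in SAT than in BAT (95% interval 0.25 to 2.5, adjusted p = 0.0597). In these fits 47.6% of the 84 precursors passed in VAT/BAT (29.8% with a higher difference in VAT) and 28.6% in SAT/BAT (17.9% with a higher one in SAT), and miR-151 ranked 35 and 44 by size. An arm difference of this size was therefore common among the precursors. With the 3 libraries of high muscle miRNAs left out, the differences were 1.63 (adjusted p = 0.0578) and 1.42 (adjusted p = 0.0682).

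For miR-708 the arm difference was 1.28, -0.86 and 0.00 in BAT 12, BAT 15 and BAT 20, where the last has both arms at the lowest value. It was 2.75, 3.97 and 2.26 in SAT 14, SAT 19 and SAT 20, and 1.89, 1.98 and 1.84 in VAT 14, VAT 17 and VAT 20. The 5p arm led in all SAT and VAT libraries, by 7.95-fold and 3.74-fold on average, and neither arm led in all BAT libraries. In the fit over the 84 precursors the arm difference was 1.76 higher in VAT than in BAT (adjusted p = 0.0340) and 2.85 higher in SAT (adjusted p = 0.0156), with exact permutation p = 0.1 for both. In BAT both arms lie near the lowest value, which bounds how far apart they can be. The VAT/BAT call was lost with the lowest value subtracted and 1 added (adjusted p = 0.101), and without BAT 20 the difference was 1.69 (adjusted p = 0.0642). It was likewise lost without BAT 15 (adjusted p = 0.0615), VAT 14 (0.0904), VAT 17 (0.115) or VAT 20 (0.0899). With the 3 libraries of high muscle miRNAs left out, BAT 12 was the only BAT library, and the call was lost as well (difference 0.65). The SAT/BAT call was lost without BAT 15 (adjusted p = 0.0569), without SAT 14 (adjusted p = 0.0914), with the lowest value subtracted and 1 added (adjusted p = 0.0776) and with those 3 libraries left out (difference 1.71). Between VAT and SAT the libraries did not overlap, and the difference was -1.09 (95% interval -2.19 to 0.01, adjusted p = 0.152), with 14.3% of the 84 precursors past the threshold (5.95% with a higher difference in VAT) and 39.3% without overlap.

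For miR-28a the 5p arm was the higher in all 9 libraries, by 0.08, 0.50 and 0.11 on the log2 scale in BAT 12, BAT 15 and BAT 20, by 0.56, 1.40 and 0.83 in SAT 14, SAT 19 and SAT 20, and by 0.74, 0.81 and 0.87 in VAT 14, VAT 17 and VAT 20. Its 5p value cannot be told apart from that of miR-28c. BAT did not overlap with SAT or VAT. The change from BAT was 0.58 in VAT (95% interval -0.12 to 1.28, adjusted p = 0.146 in limma) and 0.70 in SAT (95% interval -0.45 to 1.85, adjusted p = 0.314), so that neither passed. In all 3 precursors the libraries of BAT lay below those of VAT and of SAT in the arm difference. Libraries without overlap, in either direction, were found for 56% of the 84 precursors in VAT/BAT and for 48.8% in SAT/BAT. The share with BAT lower, in either or both of these comparisons, was not counted.

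**Figure D4:**
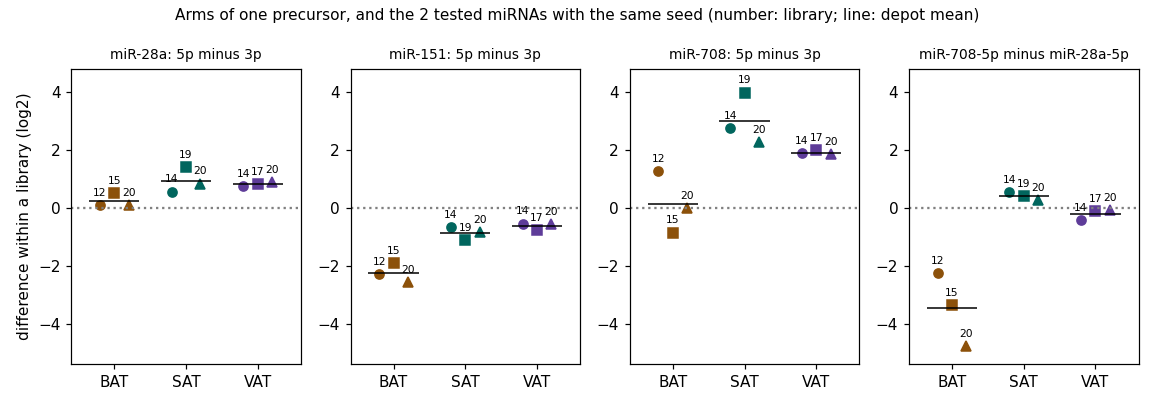
Log2 difference within a library (vertical axis) between the 5p and 3p arms of miR-28a, miR-151 and miR-708 and between miR-708-5p and miR-28a-5p, for each library (points, numbered by library) of BAT, SAT and VAT with the depot mean as a line. The miR-151 values are -2.57 to -1.90 in BAT and -1.12 or above in SAT and VAT.

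The tested miRNAs outside the family with the profiles most like those of the 6 arms were found by the root mean square distance between log2 profiles over the 9 libraries, each with its mean subtracted. The profile of miR-151-3p was nearest to miR-99b-5p (distance 0.17, means 16.32 in BAT, 15.44 in SAT and 15.11 in VAT), miR-574-3p (0.17) and miR-484 (0.25), against a median distance of 1.21 from the other tested miRNAs. MiR-708-5p was nearest to miR-224-5p, itself from an intron of Gabre (0.75, at the lowest value in BAT, 7.95 in SAT and 7.51 in VAT), miR-193a-3p (0.81) and miR-34c-5p (0.83), where the median was 2.19. No profile was as near to miR-708-5p as those found for the other arms, and its own 3p arm was at 1.35. Profiles were not scaled to their spread, so that an arm that varies more tends to have larger distances. The median distance of miR-708-5p was also the largest of the 6 arms. MiR-708-3p was nearest to miR-17-5p (0.44), miR-322-5p (0.49) and miR-27b-5p (0.53). The profile of miR-28a-5p was nearest to miR-872-3p (0.22), miR-125b-1-3p (0.29) and miR-30b-5p (0.29). MiR-151-5p was nearest to miR-191-5p (0.23), to which the study normalized its qPCR, and then to miR-204-5p (0.24) and miR-181c-5p (0.26). MiR-28a-3p was nearest to miR-380-3p (0.25), miR-29a-3p (0.25) and miR-409-5p (0.26), 2 of which had the lowest mean, 3.32, in BAT and SAT, so that the likeness there is that of flat profiles.

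Other miRNAs from introns of protein-coding genes were counted for comparison. A list of 29 such precursors had 42 arms that were tested. In VAT/BAT 17 of these were higher in VAT, 9 were lower and 16 did not pass, with a median log2 difference of 0.33. In SAT/BAT 10 were higher, 5 were lower and 27 did not pass (median -0.04), and in VAT/SAT 7 were higher in VAT, 3 were lower and 32 did not pass (median 0.22). Over all 343 tested miRNAs, 66.2%, 40.5% and 16% passed in these comparisons, and nothing particular to intronic miRNAs is read from the counts. The rises that were largest in the list, both in VAT and in SAT against BAT, were those of miR-335-3p, in an intron of the imprinted gene Mest (log2 differences 5.70 and 6.31), and miR-340-5p, in Rnf130 (4.92 and 5.65). The largest falls were those of miR-455-3p, in Col27a1 (-4.70 in both), and miR-378a-5p, in Ppargc1b, the gene of a coactivator of mitochondrial genes (-3.74 and -4.11). All 8 had an adjusted p under 0.05. In VAT/SAT the largest were miR-511-3p in Mrc1 (2.79), miR-342-5p in Evl (2.59), miR-335-5p (-2.46) and miR-25-5p in Mcm7 (-2.29). MiR-708-5p lay between miR-378a-5p and miR-340-5p in the size of its VAT/BAT change, and miR-151-3p and miR-28a-5p changed by less than these.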

How the data were processed

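MiRNA values of 9 libraries, 3 each of BAT, SAT and VAT, were used as deposited. Mapping by the authors was to precursors of miRBase. They retained mature reads, divided ambiguous reads proportionally, scaled each library to its total usable reads and then added a constant of 40. Values were deposited on a log2 scale whose lowest value is 10 before the logarithm. This is below the stated constant of 40, so that the offset held in the deposited values is not known. Among the top 100 ranks, 80 had values within 0.05 of each other in all libraries, a pattern that quantile normalization leaves. The version of miRBase is not given in the sources used here.

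Tests covered 343 of 1251 miRNAs, those exceeding the lowest value in 3 or more libraries. The moderated test of limma 3.58.1 (R 4.3.3) was two-sided, used the 6 libraries of a comparison with no block, and had Benjamini-Hochberg adjustment. The study's test per miRNA had no moderation and was run as an alternative. Arm differences were tested by exact permutation (scipy 1.17.1, Python 3.11.15). The fit was tested on simulated data.

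Named are all members, the 3 nearest profiles of each arm, and the 2 largest rises and falls among other intronic miRNAs. The members and lists were chosen with earlier results of these data known. Of the lists by cell type, the endothelial one (2 miRNAs) had no row under the names used. The lymphoid miR-150-5p had log2 values of 14.31 to 14.74 in BAT, 13.56 to 16.72 in SAT and 12.50 to 14.11 in VAT. Of the red cell list, miR-451a had 8.82 to 9.71, 9.93 to 10.38 and 11.18 to 11.81, and miR-144-3p had the lowest value. Alternatives were other offsets, filters and scalings, a fit of all 9 libraries, replicate blocks, no moderation and each library left out. The alternatives added after seeing the data were 40 in place of the lowest value, 3 libraries of high muscle miRNAs left out, and limma on arm differences. The position of 1 precursor is not reported here.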

Additional observations from a re-analysis of the deposited data

How the results depend on the processing

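The groups hold 3 libraries each and the depth is unknown, so that small differences, such as those of miR-28a-3p and miR-151-5p, could not be resolved. Without the filter on low values, which adds miRNAs at the lowest value and changes the variance that limma shares, 128 miRNAs passed in VAT/BAT, 74 in SAT/BAT and 4 in VAT/SAT, against 227, 40.5% of the 343, and 55. The log2 differences kept their values and lost the threshold for miR-708-5p (4.25 and 4.79 in VAT/BAT and SAT/BAT), miR-708-3p (2.48 in VAT/BAT) and miR-151-3p (-0.89 in SAT/BAT). The 172 miRNAs with the higher mean gave 120 in VAT/BAT, and miR-28a-5p passed in SAT/BAT (0.93), where fewer miRNAs were tested. With the lowest value subtracted and 1 added, miR-708-3p lost the threshold in VAT/BAT (3.75). The median log2 difference over the 343 miRNAs moved from 0.40 to 0.13 in VAT/BAT with quantile normalization, and relative to miR-191-5p from 0.26 to 0.088 in SAT/BAT and from 0.0996 to 0.27 in VAT/SAT. Relative to miR-191-5p, 2 miRNAs passed in VAT/SAT, both higher in VAT, where 52.7% of the calls were higher before, and miR-708-3p passed in SAT/BAT (1.77). Without moderation 13 passed in VAT/SAT.

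In a fit of all 9 libraries 30 miRNAs passed in VAT/SAT, and miR-28a-5p (0.93) and miR-708-3p (1.94) passed in SAT/BAT. With the title number as a replicate block in that fit, the values were 30, 0.94 and 1.97. With the library order as a replicate block, none passed in VAT/SAT in limma (0, with 105 at an unadjusted p under 0.05), and miR-151-3p lost the threshold in SAT/BAT (-0.89). After subtraction of the depot means, libraries with the same title number correlated at -0.14 to 0.27 over miRNAs (4 pairs) and those with the same order at -0.17 to 0.36 (9 pairs). Pairs with neither in common had -0.48 to 0.23 (18 pairs). With so few libraries these values cannot show whether any come from the same mouse. Neither number was taken to pair the libraries, since the labels do not say what the numbers are. With BAT 15, BAT 20 and VAT 20 left out, 5 miRNAs passed in VAT/SAT. MiR-28a-5p (0.80) and miR-708-3p (2.11) lost the threshold in VAT/BAT, and miR-28a-3p changed sign in SAT/BAT (-0.077). Limma over the 84 precursors put the arm differences of miR-151 (1.62 in VAT/BAT) and miR-708 (1.76 and 2.85 in VAT/BAT and SAT/BAT) past the threshold, which the exact test cannot reach with 3 libraries a depot. Apart from the alternatives whose construction is named, the cause was not tested.

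With 1 library left out at a time, 0 to 49 miRNAs passed in VAT/SAT. It was 0 without SAT 19 (104 at an unadjusted p under 0.05), 12 without SAT 20, 23 without VAT 14 and 5 without VAT 20. The log2 difference in VAT/BAT was 1.81 to 3.04 for miR-708-3p and -0.020 to 0.46 for miR-151-5p, which was below 0 without BAT 20. In SAT/BAT it was 0.75 to 1.21 for miR-28a-5p and -1.05 to -0.72 for miR-151-3p. In VAT/SAT it was -0.21 to 0.24 for miR-28a-5p, below 0 without SAT 14, and -0.31 to 0.11 for the arm difference of miR-28a, above 0 without SAT 19.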
